A study of Rattus norvegicus with 6 samples.

Results

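Rab GTPases are small GTP-binding proteins that direct membrane traffic, and 55 genes for them were followed in INS-1 cells that overexpress a smooth muscle form of actin, α-SMA, the product of ACTA2. A gene was taken when its symbol was Rab followed by a number and at most 1 letter and 1 further digit, so effectors and regulators such as Rab3gap2 were not members. The 55 genes are among 21553 named genes of the deposited table, and they lie on 20 chromosomes. INS-1 is an insulin-secreting line derived from a rat insulinoma, used here at passages 7 to 15. RNA was sequenced from 3 libraries named INS-MOCK, with a wild type genotype, and from 3 libraries named INS-SMA, in which α-SMA was delivered by lentivirus. The series calls the 3 libraries of a group biological replicates. The labels do not say whether INS-MOCK cells received a lentivirus, what promoter drives α-SMA or whether the cells are 1 clone. The comparison asks which genes differ when INS-1 cells overexpress α-SMA.

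A Rab protein cycles between a GTP-bound form, which sits on a membrane and recruits effectors, and a GDP-bound form, which is extracted into the cytosol by GDP dissociation inhibitors. Guanine nucleotide exchange factors switch a Rab on and GTPase-activating proteins switch it off, and a lipid anchor added by geranylgeranyl transferase holds it on the membrane. Each Rab marks particular compartments. In the beta cell, members of the Rab3 and Rab27 subfamilies sit on insulin granules and act in their docking and release, while other Rabs serve traffic through the endoplasmic reticulum (ER), Golgi, endosomes and lysosomes.

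Total counts ran from 34471794 to 37466920 in INS-MOCK and from 24719503 to 39608609 in INS-SMA. The introduced gene, human ACTA2, had 103 to 167 counts in the INS-MOCK libraries and 941093 to 1141322 in those of INS-SMA. Counts of a gene were summed over its transcript rows and are given as CPM (the count of a gene relative to the size of its library, scaled to 1000000) on library sizes scaled by edgeR's TMM method, as mean ± SD over 3 libraries. Rows with no gene took 32.7% to 33.0% of the counts of an INS-MOCK library and 35.8% to 36.7% of those of an INS-SMA library. Reads of a Rab gene that fell in such rows are missing from its value. Summed over 12 beta cell markers, levels were 34311 to 37253 CPM in INS-MOCK and 3368 to 4512 CPM in INS-SMA, with Ins1 the largest term. By gene, 9 of the 12 fell and 3 (Nkx2-2, Iapp and Slc2a2) did not pass. Nkx2-2 was lower in every INS-SMA library, from 127 to 13.6 CPM on average (edgeR adjusted p = 0.0503). Iapp was higher on average, from 0.984 to 4.87 CPM, mostly through INS-SMA replicate 2 at 11.7 CPM. Slc2a2 was widely spread in both groups, at 344 ± 241 and 280 ± 221 CPM. The summed levels of the other marker lists were 720 to 778 against 37.4 to 46.2 CPM for 4 markers of other islet cells, 0.743 to 2.73 against 3.58 to 4.51 CPM for 6 immune and endothelial markers, and 13.8 to 16.9 against 12.1 to 13.2 CPM for 7 fibroblast markers. Members of the last list went different ways, since Pdgfra, most of its sum, fell from 15.3 to 8.24 CPM, while Col3a1 rose from 0.0698 to 2.84 CPM, and Dcn and Lum had 0 counts in all INS-MOCK libraries and 2 to 12 in each INS-SMA library. Ptprc, a marker of immune cells, had 0 counts in all INS-MOCK libraries and 29 to 34 in those of INS-SMA. It was the only 1 of 4 tested genes of the immune and endothelial list that passed. The other 3 went different ways, Adgre1 from 0.105 to 1.00 CPM, Csf1r from 0.925 to 1.09 CPM and Cd68 from 0.568 to 0.315 CPM. The part of these differences in the Rab values was not tested.

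Of the 55 Rab genes, 49 had enough counts to be tested. In edgeR's quasi-likelihood test, adjusted over all 13363 tested genes, 12 Rab genes were higher and 19 lower in INS-SMA at an adjusted p under 0.05. Over all tested genes 28.1% were higher and 27.0% lower, so change in itself was common in this comparison, and 55.1% of genes passed in either direction against 63.3% of the tested Rabs. The change was 2-fold or more for 9 of the 12 Rab genes that rose and for 7 of the 19 that fell. Over all genes it was so for 2078 of the 3753 that rose and 1667 of the 3606 that fell. Those are 15.6% and 12.5% of all tested genes, to be set beside 9 and 7 of the 49 tested Rabs. Libraries of the groups did not overlap for 37 of the 49 Rab genes, against 65.3% of all tested genes. Of these, 13 were higher in all INS-SMA libraries (33.5% of all genes) and 24 lower (31.9%). The median log2 fold change was -0.16 for tested Rab genes and 0.03 for all tested genes. Summed over all 55 genes, Rab transcripts were at 5042, 4872 and 4959 CPM in INS-MOCK and at 3913, 4058 and 4149 CPM in INS-SMA. Every INS-SMA sum was below every INS-MOCK sum (two-sided p = 0.1 in an exact permutation test, which can give no smaller p with 3 against 3). In bulk RNA, fewer cells that express a gene and less RNA per cell cannot be told apart.

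**Figure D1:**
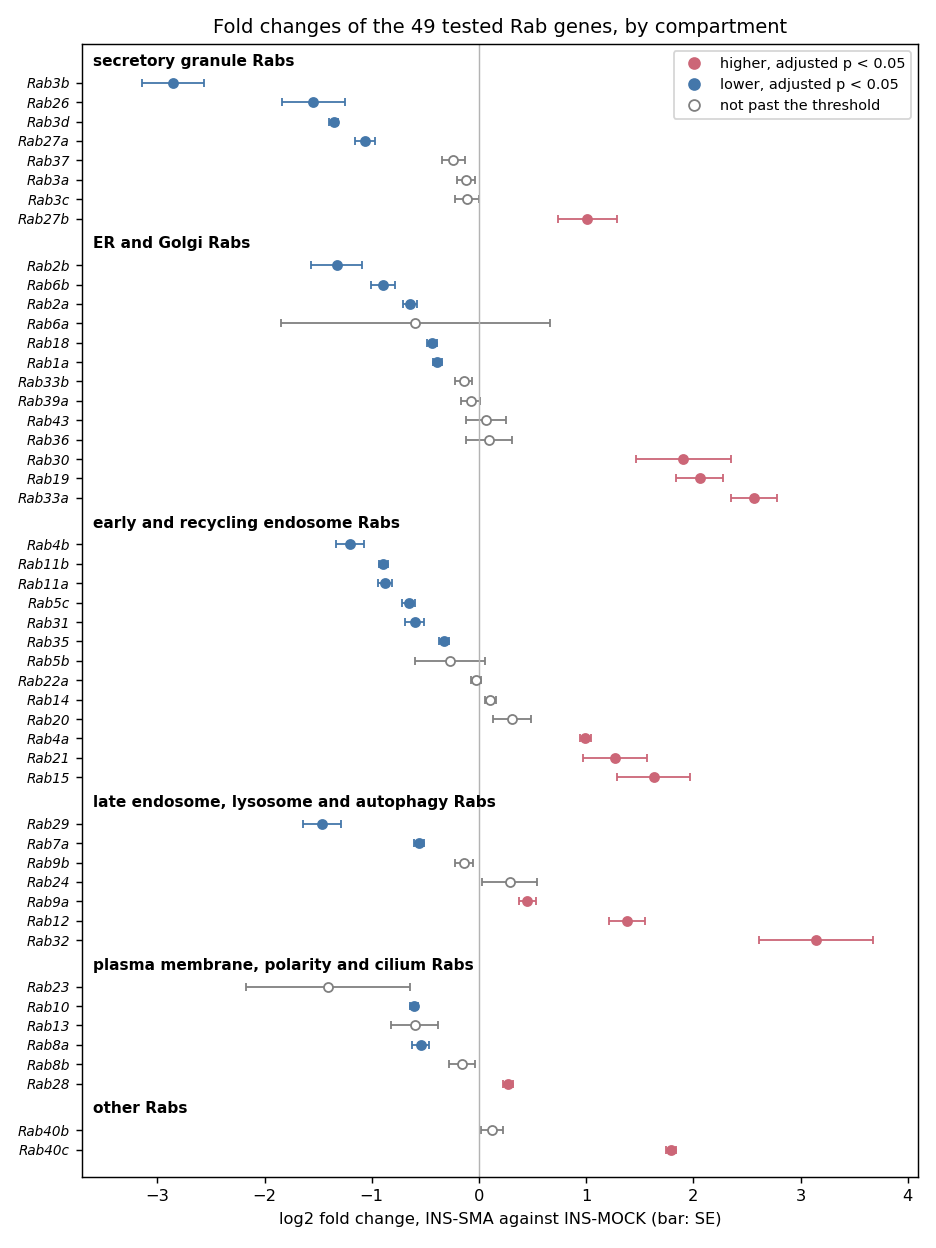
Log2 fold change of INS-SMA against INS-MOCK (horizontal axis) for the 49 tested Rab genes, grouped by compartment, with bars of 1 SE and filled points for genes past an edgeR adjusted p of 0.05. Granule Rabs span -2.86 (Rab3b) to 1.01 (Rab27b), and Rab32 has the highest value of all, 3.14.

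A value in parentheses before an adjusted p is a log2 fold change of INS-SMA against INS-MOCK. Among the Rabs of secretory granules, Rab3b, Rab26, Rab3d and Rab27a fell, Rab27b rose from a low level, and Rab3a, Rab3c and Rab37 did not pass the test. The 4 Rab3 genes encode closely related proteins of synaptic vesicles and secretory granules. Gene positions are given as deposited, and rn6 is the only rat genome build named in the submitters' processing notes. Rab3b (chromosome 5, 128501847 to 128568188, plus strand) was at 13.6, 15.3 and 16.0 CPM in the INS-MOCK libraries and at 1.74, 1.56 and 2.88 CPM in the INS-SMA libraries. The groups lay far apart, at a log2 fold change of -2.86 with SE 0.29 (edgeR adjusted p = 4.66e-04), a 7.24-fold fall. Rab3d (chromosome 8, 22918699 to 22929294, minus strand), known from granules of exocrine and endocrine cells, was at 346, 346 and 363 CPM in INS-MOCK and at 135, 135 and 142 CPM in INS-SMA. Replicates were close together in both groups, and Rab3d fell by 1.36 log2 units with SE 0.04 (edgeR adjusted p = 8.19e-06).

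Rab3a (chromosome 16, 20435101 to 20439206, minus strand), the Rab of synaptic vesicles that also regulates insulin granule release, was at 122, 135 and 146 CPM in INS-MOCK and at 134, 118 and 119 CPM in INS-SMA. Its annotation overlaps Mpv17l2 on the other strand. The groups overlapped, and the log2 fold change was -0.12 with SE 0.08 (edgeR adjusted p = 0.29). Rab3c (chromosome 2, 41570597 to 41785792, minus strand) also overlapped, at 15.8, 15.3 and 14.6 and 13.0, 15.3 and 13.9 CPM, with a log2 fold change of -0.11 with SE 0.11 (edgeR adjusted p = 0.448). As the members of the subfamily moved unequally, its make-up shifted. Of the counts in Rab3a to Rab3d, Rab3d held 68.1% ± 1.20 in INS-MOCK and 49.6% ± 1.74 in INS-SMA, and Rab3a held 26.0% ± 1.29 and 44.6% ± 2.23. Rab3b went from 2.90% ± 0.137 to 0.742% ± 0.253 of these counts, and Rab3c from 2.96% ± 0.241 to 5.09% ± 0.549. For each of the 4 shares the groups did not overlap (exact two-sided permutation p = 0.1 each, the smallest possible). These shares need no library scaling, but they are not adjusted for transcript length, which the table does not give.

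**Figure D2:**
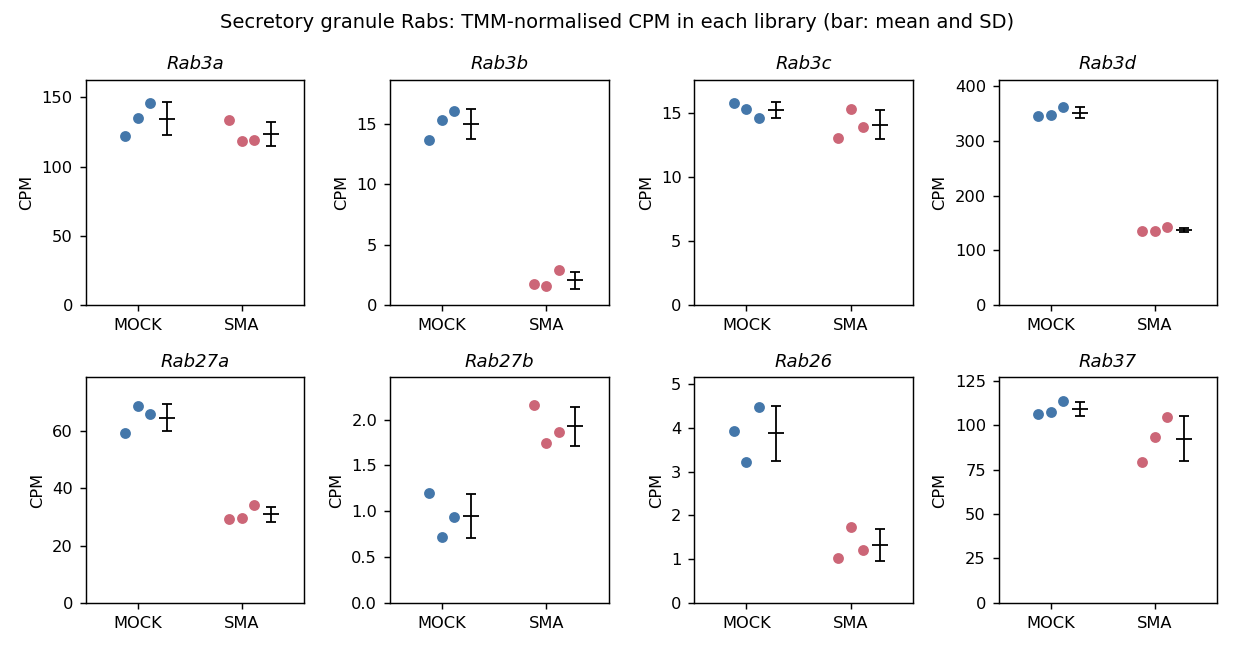
CPM in each library (vertical axis from 0, one panel a gene) for the 8 granule Rabs in INS-MOCK (blue) and INS-SMA (red), with bars for mean and SD. Rab3b, Rab3d, Rab27a and Rab26 are lower in all 3 INS-SMA libraries, as is Rab37, which did not pass the test. Rab27b is higher, and Rab3a and Rab3c overlap.

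Rab27a and Rab27b, which tether granules at the plasma membrane through synaptotagmin-like proteins, went in opposite directions. Rab27a (chromosome 8, 79722334 to 79776221, plus strand) was at 59.3, 68.8 and 65.8 CPM in INS-MOCK and at 29.3, 29.6 and 34.0 CPM in INS-SMA. Each INS-SMA library had less than each INS-MOCK library, and Rab27a fell by 1.06 log2 units with SE 0.09 (edgeR adjusted p = 2.82e-04). Rab27b (chromosome 18, 68488942 to 68551558, minus strand) was low in all libraries, with 29, 16 and 22 counts in INS-MOCK and 36, 38 and 48 in INS-SMA, or 1.20, 0.717 and 0.940 against 2.16, 1.74 and 1.87 CPM. It rose by 1.01 log2 units with SE 0.27 (edgeR adjusted p = 0.0244). That call was not firm, since the adjusted p was 0.0801 with DESeq2, 0.0531 with no low-count filter and 0.0537 to 0.0781 without INS-MOCK replicate 2 or 3 or any 1 of the INS-SMA libraries, where alternatives spanned 0.0207 to 0.0801.

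Rab26, which acts in granule maturation in secretory cells, had 95, 72 and 105 counts in INS-MOCK and 17, 38 and 31 in INS-SMA. Its level fell from 3.88 ± 0.631 to 1.32 ± 0.375 CPM, or by 1.55 log2 units with SE 0.29 (edgeR adjusted p = 0.00607). Rab37, found on granules of mast cells and other secretory cells, was at 106, 107 and 114 CPM in INS-MOCK and at 79.4, 93.1 and 105 CPM in INS-SMA. Its INS-SMA libraries all lay below those of INS-MOCK but were spread, and it did not pass (log2 fold change -0.24, edgeR adjusted p = 0.111). Without INS-SMA replicate 3 Rab37 passed at -0.34 (adjusted p = 0.0296, where alternatives spanned 0.0296 to 0.263).

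Granule Rabs were set beside the other Rabs by counts. Of 8 granule Rabs, all tested, 4 fell and 1 rose. Of the 41 tested Rabs outside that list, 15 fell and 11 rose, and of all tested genes 27.0% were lower and 28.1% higher. The 4 granule Rabs that fell all did so by at least 2-fold, which was true of 3 of the 15 other Rabs that fell. Of the 3606 genes that fell over all tested genes, 1667 did so by at least 2-fold, which is 12.5% of all tested genes. The median log2 fold change was -0.65 for granule Rabs and -0.14 for the others. The difference between the lists was not tested, since genes are not replicates. Of the 12 beta cell markers, 9 fell in the same comparison, and their part in the granule list's change was not tested. Summed CPM of the granule list went from 695 ± 28.3 to 404 ± 14.2, and that of the other Rabs from 4263 ± 100.3 to 3636 ± 107.5. Most of the fall of the granule sum was that of Rab3d, its largest term, from 352 ± 9.64 to 137 ± 4.25 CPM. Rab3a, the next largest, went from 134 ± 11.9 to 124 ± 8.63 CPM. For both sums the groups did not overlap (exact two-sided permutation p = 0.1 each, the smallest possible).

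No list below was tested against the rest of the genes, and its counts stand beside shares of 28.1% higher and 27.0% lower over all tested genes. Rabs of the ER and Golgi included both abundant members that fell and low ones that rose. Of 13 tested, 5 fell, 3 rose and 5 did not pass. Rab1a, which acts in transport from the ER to the Golgi, had the highest counts of the list and went from 567 ± 13.0 to 433 ± 17.4 CPM (log2 fold change -0.39, edgeR adjusted p = 5.62e-04). Rab2a, which acts between ER and Golgi and in granule biogenesis, went from 166 ± 3.32 to 107 ± 8.83 CPM (-0.64, edgeR adjusted p = 5.32e-04). Its close relative Rab2b was at 7.31, 6.45 and 7.61 CPM in INS-MOCK and at 2.40, 2.43 and 3.66 CPM in INS-SMA, and fell by 1.33 log2 units with SE 0.24 (edgeR adjusted p = 0.00495). Its annotation overlaps Tox4 on the other strand, and with no strand setting given their reads cannot be told apart. Rab6b, a Golgi Rab prominent in neurons, fell by 0.90 log2 units and Rab18, linked to ER and lipid droplets, by 0.43.

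Rab33a, Rab19 and Rab30 were the ER and Golgi Rabs that rose. Rab33a, a Golgi Rab of neurons and immune cells (chromosome X, 135348436 to 135360203, plus strand), was at 1.90, 2.73 and 2.69 CPM in INS-MOCK and at 12.7, 15.6 and 15.1 CPM in INS-SMA. That is a 5.92-fold rise with a wide gap between groups (log2 fold change 2.56, SE 0.21, edgeR adjusted p = 2.22e-04). Rab19 (chromosome 4, 67165883 to 67176363, plus strand) was at 2.81, 2.42 and 2.65 and 12.6, 11.9 and 8.36 CPM, a log2 fold change of 2.06 with SE 0.22 (edgeR adjusted p = 5.80e-04). Rab30, a Rab of the Golgi also linked to the autophagy of bacteria (chromosome 1, 157573324 to 157660008, plus strand), was at 4.38, 3.41 and 1.41 and 14.1, 10.4 and 10.1 CPM, with more spread within INS-MOCK and a log2 fold change of 1.91 with SE 0.45 (edgeR adjusted p = 0.0139). These 3 genes were low in INS-MOCK, so their CPM rest on few counts, from 33 to 106 in an INS-MOCK library. Rab33b, Rab39a, Rab43 and Rab36 had log2 fold changes of -0.14 to 0.09 and did not pass.

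Rab6a, a Rab of traffic within and from the Golgi, was not stable between replicates. It was at 189, 42.3 and 30.8 CPM in INS-MOCK and at 8.11, 19.1 and 146 CPM in INS-SMA. Within each group 1 library was several-fold above the others, the log2 fold change was -0.59 with SE 1.25 (edgeR adjusted p = 0.723), and its sign turned without INS-MOCK replicate 1 (0.65). No direction can be read from it.

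Sequence upstream of the start was looked up for the Rabs in RefSeq (build GRCr8), where 45 of the 55 symbols matched. The 250 bases before a start were searched on both strands for 4 motifs, chosen with the results known. For a Rab only the first start listed under its symbol was used, while the share over all promoters counts every listed start. The interferon-stimulated response element, searched as GAAA, any 2 bases and GAAA, was in 3.41% of all 33469 promoters and in 1 of 45 Rab promoters, that of Rab19. The cyclic AMP response element TGACGTCA (1.59% of all) was in that of Rab25, the E-box CACGTG (5.59%) in those of Rab21 and Rab31, and the amino acid response element TGATGCAA (0.693%) in 0 of 45. Shown are Rab19, as the member with the interferon motif, Rab32, with the largest rise, and Rab3b, with the largest fall. Capitals mark the interferon motif, which lies on the other strand, and which in Rab19 occurs at 2 overlapping places starting 62 and 56 bases before the start. The windows are chr4:69123712-69123961 (plus strand) for Rab19, chr1:6781259-6781508 (minus strand) for Rab32 and chr5:128858841-128859090 (plus strand) for Rab3b, each written 5′ to 3′ along its gene.
Rab19: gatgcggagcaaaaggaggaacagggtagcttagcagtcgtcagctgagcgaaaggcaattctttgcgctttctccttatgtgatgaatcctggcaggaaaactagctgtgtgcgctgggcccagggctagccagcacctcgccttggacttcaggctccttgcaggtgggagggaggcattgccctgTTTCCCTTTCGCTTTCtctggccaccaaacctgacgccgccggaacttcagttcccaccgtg
Rab32: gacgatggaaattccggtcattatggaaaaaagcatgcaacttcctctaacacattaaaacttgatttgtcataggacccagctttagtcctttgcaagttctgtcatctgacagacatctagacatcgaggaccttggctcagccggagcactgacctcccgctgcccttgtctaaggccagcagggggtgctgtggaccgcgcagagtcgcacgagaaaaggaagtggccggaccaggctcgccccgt
Rab3b: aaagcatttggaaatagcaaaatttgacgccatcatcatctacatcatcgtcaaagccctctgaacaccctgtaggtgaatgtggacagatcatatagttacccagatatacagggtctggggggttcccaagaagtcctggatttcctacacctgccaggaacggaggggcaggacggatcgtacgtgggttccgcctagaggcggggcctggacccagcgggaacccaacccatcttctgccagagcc
A match of letters is a description and says nothing about binding.

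Of 13 tested Rabs of early and recycling endosomes, 6 fell, 3 rose and 4 did not pass. Rab11a and Rab11b, the main Rabs of recycling endosomes, fell together. Rab11a was at 114, 111 and 104 CPM in INS-MOCK and at 55.8, 62.8 and 60.9 CPM in INS-SMA (-0.88, edgeR adjusted p = 1.46e-04). Rab11b was at 275, 256 and 258 and 142, 147 and 136 CPM (-0.89, edgeR adjusted p = 3.96e-05). Their log2 fold changes differed by less than the SE of either. Rab5c, of the early endosome, fell by 0.66, Rab31 by 0.60 and Rab35, of endocytic recycling, by 0.32. The call for Rab35 was lost in its most abundant row (adjusted p = 0.158, where alternatives spanned 3.95e-05 to 0.158).

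Rab4a and Rab4b, both of fast endocytic recycling, moved in opposite directions. Rab4a (chromosome 19, 56585767 to 56613075, plus strand) was at 39.4, 38.0 and 39.6 CPM in INS-MOCK and at 81.1, 76.6 and 75.2 CPM in INS-SMA, and rose by 0.99 log2 units with SE 0.05 (edgeR adjusted p = 4.46e-05). Rab4b (chromosome 1, 83979298 to 83990588, minus strand) was at 32.5, 32.1 and 31.2 and 14.2, 11.6 and 15.7 CPM, and fell by 1.21 log2 units with SE 0.13 (edgeR adjusted p = 6.55e-04). Both pairs of groups were far apart relative to their replicates. Rab21, which acts in the endocytosis of integrins, was at 51.4, 107 and 109 CPM in INS-MOCK and at 211, 223 and 209.7 CPM in INS-SMA. INS-MOCK replicate 1 was low beside the other INS-MOCK libraries, and Rab21 rose by 1.27 log2 units with SE 0.29 (edgeR adjusted p = 0.0136), or by 1.00 without that library. Rab15, of recycling endosomes in neurons, rose from 1.80 ± 0.706 to 5.59 ± 1.04 CPM (1.63, edgeR adjusted p = 0.00942). Rab14 had the highest counts of this list, 452 ± 18.3 CPM in INS-MOCK and 486 ± 23.6 in INS-SMA, and its log2 fold change of 0.11 did not pass (edgeR adjusted p = 0.135). It passed at an adjusted p of 0.0477 without replicate 1 of INS-MOCK or of INS-SMA, where alternatives spanned 0.0477 to 0.311. Rab5b (-0.27), Rab20 (0.31) and Rab22a (-0.03) did not pass either.

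**Figure D3:**
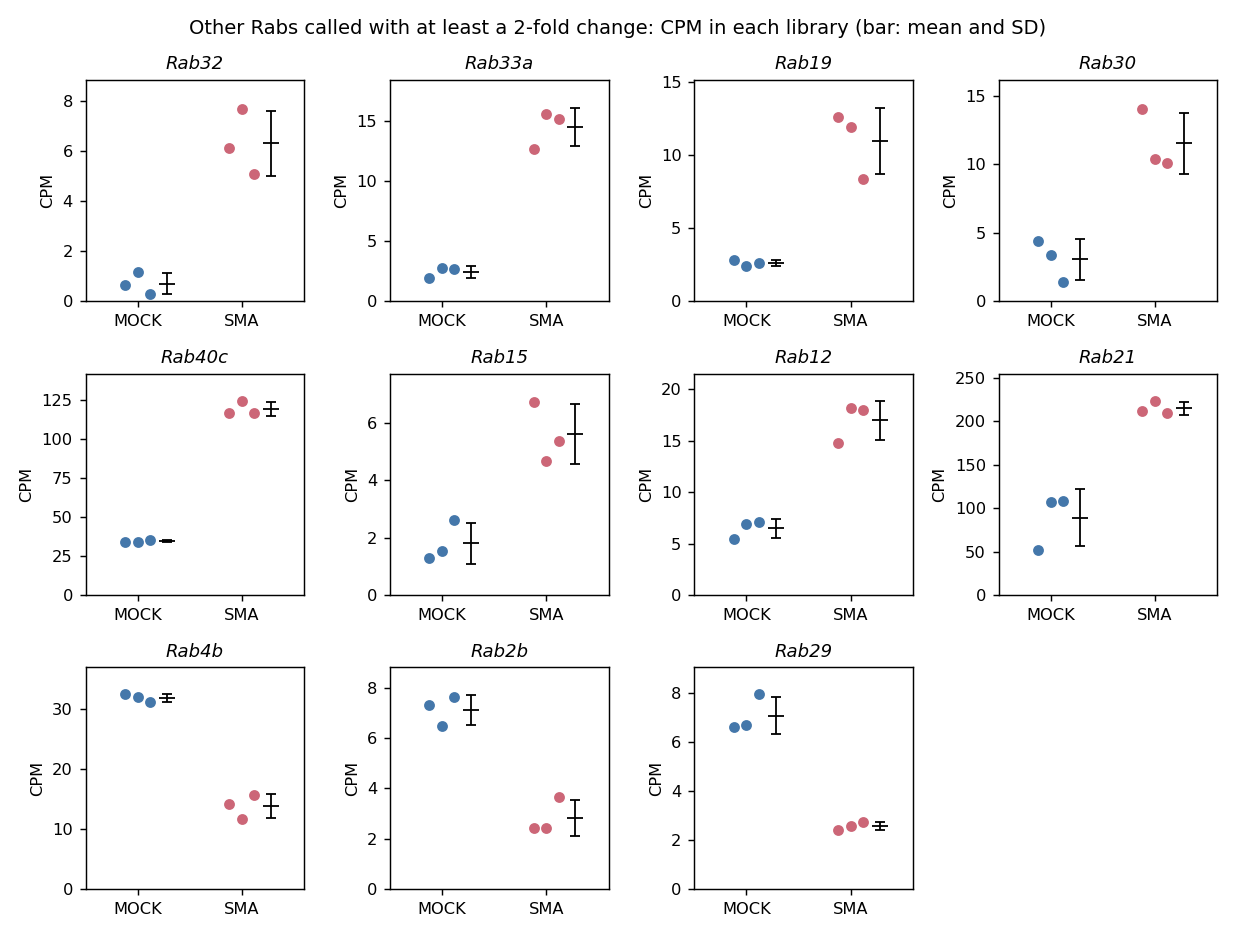
CPM in each library (vertical axis from 0, one panel a gene) for the 11 Rabs outside the granule list that passed the test with at least a 2-fold change, in INS-MOCK (blue) and INS-SMA (red), with bars for mean and SD. The first 8 panels show genes that rose, from Rab32 to Rab21, and the other 3 show Rab4b, Rab2b and Rab29, which fell.

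Of 7 tested Rabs of late endosomes, lysosomes and autophagy, 3 rose, 2 fell and 2 did not pass. Rab32, which acts in the biogenesis of lysosome-related organelles and in defence against intracellular bacteria (chromosome 1, 4637491 to 4653210, minus strand), had 16, 26 and 7 counts in INS-MOCK and 102, 167 and 131 in INS-SMA. That is 0.661, 1.17 and 0.299 CPM against 6.13, 7.66 and 5.09 CPM, an 8.84-fold rise with groups far apart (log2 fold change 3.14, SE 0.53, edgeR adjusted p = 0.00391). Its close relative Rab38, of the same organelles, had 9, 14 and 3 counts in INS-SMA and 0 in all of INS-MOCK, too few to be tested. Rab29, the third of this subfamily, fell instead, from 7.08 ± 0.755 to 2.57 ± 0.160 CPM (-1.46, edgeR adjusted p = 9.93e-04). Its call was lost in its most abundant row (adjusted p = 0.0546, where alternatives spanned 9.50e-07 to 0.0546).

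Rab12, which acts between recycling endosomes and lysosomes, was at 5.45, 6.95 and 7.14 CPM in INS-MOCK and at 14.7, 18.1 and 18.0 CPM in INS-SMA, and rose by 1.38 log2 units with SE 0.17 (edgeR adjusted p = 0.00109). Rab9a, of transport from late endosomes to the Golgi, rose from 43.8 ± 0.879 to 59.9 ± 4.99 CPM (0.45, edgeR adjusted p = 0.00375). Rab7a, the Rab of late endosome and lysosome fusion and the most counted member of this list, was at 443, 437 and 457 CPM in INS-MOCK and at 314, 304 and 288 CPM in INS-SMA. All 3 INS-SMA libraries were lower, and Rab7a fell by 0.56 log2 units with SE 0.04 (edgeR adjusted p = 1.63e-04). Rab9b (-0.14) and Rab24 (0.29) did not pass. The table describes the gene with the symbol Rab24 as Max dimerization protein 3, and its annotation overlaps Prelid1 on the other strand, so the value cannot be assigned to Rab24 with certainty.

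Of 6 Rabs of the plasma membrane, cell polarity and cilium, all tested, Rab10 and Rab8a fell, Rab28 rose and 3 did not pass. Rab10, of exocytic and recycling traffic, was at 520.2, 516 and 505 CPM in INS-MOCK and at 325, 352 and 336 CPM in INS-SMA, and fell by 0.60 log2 units with SE 0.04 (edgeR adjusted p = 8.64e-05). Rab8a, of polarised exocytosis and cilium formation, fell from 117 ± 7.80 to 80.1 ± 5.76 CPM (-0.54, edgeR adjusted p = 0.00181). Rab28, a Rab of cilia, rose from 77.2 ± 2.70 to 93.1 ± 1.85 CPM (0.27, edgeR adjusted p = 0.00348). In its most abundant row the log2 fold change of Rab28 was 0.70 and did not pass (adjusted p = 0.279, where alternatives spanned 1.46e-04 to 0.279). Rab23, a negative regulator of Hedgehog signalling, was at 34.6, 50.4 and 51.4 CPM in INS-MOCK and at 21.8, 26.8 and 2.92 CPM in INS-SMA. Its groups did not overlap, but the spread was wide and it did not pass (log2 fold change -1.40, edgeR adjusted p = 0.177). Without INS-SMA replicate 3 it passed at -0.90 (adjusted p = 0.0289, where alternatives spanned 0.0289 to 0.308). Rab13 (-0.60, edgeR adjusted p = 0.0638) and Rab8b (-0.16) did not pass.

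Rab40c and Rab40b belong to a subfamily with a SOCS box, through which they join ubiquitin ligases. Rab40c (chromosome 10, 15247914 to 15282951, minus strand) was at 34.3, 34.0 and 35.3 CPM in INS-MOCK and at 117, 125 and 117 CPM in INS-SMA, a 3.46-fold rise with little spread (log2 fold change 1.79, SE 0.05, edgeR adjusted p = 6.86e-06). Its annotation overlaps Mettl26 on the other strand, which fell by 1.05 on the log2 scale from 19.6 to 9.47 CPM. Rab40b was at 21.1, 24.3 and 24.5 and 27.0, 25.7 and 23.5 CPM, with overlapping groups (log2 fold change 0.13, edgeR adjusted p = 0.356).

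Ratios of counts between genes with the same Rab number were taken within each library, so that library scaling drops out. Of 10 such pairs with both genes tested, 7 had ratios that did not overlap between groups, each with an exact two-sided permutation p of 0.1, the smallest possible, and an adjusted p of 0.143 over the 10 pairs. Of single tested genes, 65.3% already had groups that did not overlap, and the share over all gene pairs was not computed. The pairs are described here with the fold changes known. The count ratio of Rab4a to Rab4b was 1.21, 1.18 and 1.27 in INS-MOCK and 5.70, 6.60 and 4.80 in INS-SMA. For Rab27a to Rab27b it was 49.6, 95.9 and 70.0 in INS-MOCK and 13.6, 17.0 and 18.2 in INS-SMA. Rab4a gained on Rab4b, and Rab27b on Rab27a, in every INS-SMA library. For Rab33a to Rab33b the ratio was 0.0328, 0.0481 and 0.0481 and then 0.273, 0.297 and 0.271, and for Rab40b to Rab40c it was 0.614, 0.714 and 0.693 and then 0.231, 0.206 and 0.201. In contrast, Rab11a to Rab11b was at 0.415, 0.436 and 0.402 in INS-MOCK and 0.392, 0.428 and 0.447 in INS-SMA, with overlapping groups (p = 0.8 in the exact permutation test). Rab5b to Rab5c and Rab6a to Rab6b overlapped as well. How reads shared by such relatives were divided is not given in the sources used here.

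**Figure D4:**
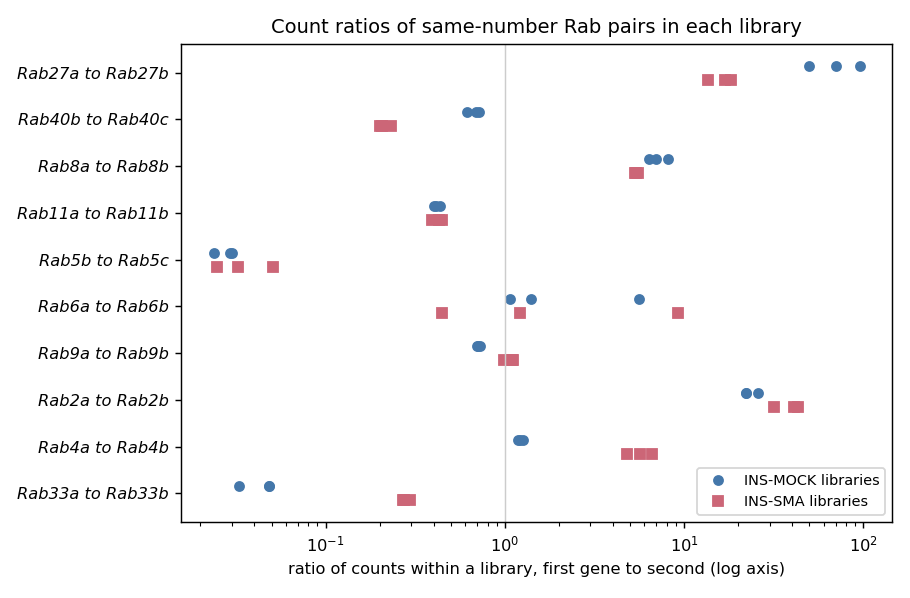
Ratio of the counts of the first to the second gene within each library (horizontal log axis) for the 10 pairs of Rab genes that share a number, with INS-MOCK libraries as blue circles and INS-SMA libraries as red squares. The groups are apart for 7 pairs and overlap for Rab11a to Rab11b, Rab5b to Rab5c and Rab6a to Rab6b.

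The deposited rows resolve transcripts, and 24 of the 55 genes had more than 1 row. Of the 61 rows of these genes 53 were tested by themselves, a step added after the data were seen, and 6 were higher and 15 lower (edgeR, adjusted over all 23402 tested rows, of which 30.1% passed in either direction, 15.6% higher and 14.6% lower). Rab22a, an endosomal Rab, was the only one of the 24 with rows called in opposite directions by edgeR, while its sum was at 95.9 ± 3.64 CPM in INS-MOCK and 93.9 ± 2.54 in INS-SMA. Row ENSRNOT00000079113 held 1763, 1507 and 1753 counts in INS-MOCK and 384, 529 and 850 in INS-SMA, or 74.8% ± 1.35 and 28.5% ± 5.01 of the gene's counts (log2 fold change -1.44, edgeR adjusted p = 0.00308). Row ENSRNOT00000064400 went from 23.4% ± 1.91 to 53.6% ± 11.6 of the counts (log2 fold change 1.14, edgeR adjusted p = 0.00722). The remaining row of Rab22a went from 1.88% ± 0.622 to 17.9% ± 6.59 (log2 fold change 3.20, edgeR adjusted p = 0.00599). All 3 shares were apart between groups.

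Rab4a and Rab12 rose mainly in 1 of their 2 rows. For Rab4a, the row ENSRNOG00000017467.1 held 172, 118 and 93 counts in INS-MOCK and 715, 690 and 840 in INS-SMA (log2 fold change 2.69, edgeR adjusted p = 0.0021). The other row of Rab4a had a log2 fold change of 0.30 and did not pass when tested as a row (edgeR adjusted p = 0.123), though it did with DESeq2 (0.0252, in a range of 0.0252 to 0.27). In a fit of the most abundant row of each gene, this other row stood for Rab4a. There it passed, and Rab4a rose by 0.38 (edgeR adjusted p = 0.028) in place of 0.99. For Rab12, the row ENSRNOG00000019295.2 went from 53.0% ± 13.8 to 95.3% ± 3.11 of the gene's counts, with a log2 fold change of 2.23 (edgeR adjusted p = 0.00139), while its other row was at -1.91 (edgeR adjusted p = 0.117). That row passed with DESeq2 (adjusted p = 0.0432, where alternatives spanned 0.0432 to 0.239), which puts its call opposite to that of the first row. Rab12 as its most abundant row rose by 2.32 in place of 1.38. Rows of a gene share exons, and how reads were divided between them is not given in the sources used here.

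**Figure D5:**
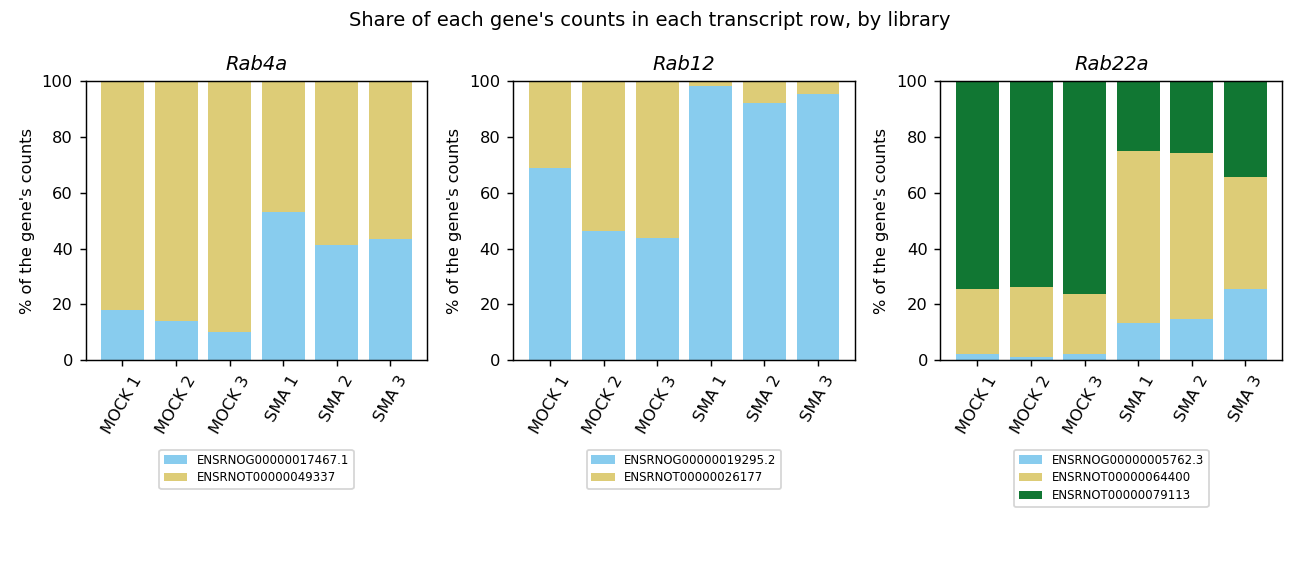
Share of a gene's counts (vertical axis, percent) in each of its transcript rows, in each of the 6 libraries, for Rab4a, Rab12 and Rab22a, with 1 colour a row. The lower segment is larger in all 3 INS-SMA libraries for each gene, and for Rab22a the top segment falls from 74.8% to 28.5% on average.

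Of 9 tested genes that handle Rabs in general, 5 fell and 1 rose, where 27.0% of all tested genes were lower and 28.1% higher. Gdi2, a GDP dissociation inhibitor, fell from 598 ± 13.5 to 416 ± 24.5 CPM (-0.52, edgeR adjusted p = 4.23e-04). Rabac1, which binds prenylated Rabs, fell by 1.22 and Rabif, a chaperone of nucleotide-free Rabs, by 1.02 on the log2 scale. Rabggta, a subunit of geranylgeranyl transferase, rose by 0.33 (edgeR adjusted p = 0.0209). Rabggtb, Rce1 and Chm did not pass.

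Of 16 genes listed as effectors of Rab3 and Rab27, 11 were tested, and 2 (18.2%) rose and 2 (18.2%) fell. Whether each listed gene binds a Rab was not checked, as for Rims3 and Rims4, which were tested and did not pass. Both shares were below the 28.1% higher and 27.0% lower of all tested genes. Sytl4 (granuphilin), which links Rab27a on insulin granules to the plasma membrane, was at 344, 346 and 379.8 CPM in INS-MOCK and at 44.9, 56.1 and 54.5 CPM in INS-SMA (-2.78, edgeR adjusted p = 1.50e-05). Its relative Sytl5, also a Rab27 effector, went the other way, from 2.93, 2.91 and 3.21 CPM to 40.0, 40.5 and 35.7 CPM (3.68, edgeR adjusted p = 8.51e-06). Both pairs of groups were widely separated. Rph3al (Noc2), an effector of Rab3 and Rab27 in endocrine granule release, fell by 1.75 (edgeR adjusted p = 0.0103), and Rims1, a Rab3 effector of the active zone, rose by 1.27 from 1.68 ± 0.266 CPM (edgeR adjusted p = 0.00495). Among 7 tested genes listed as regulators of Rab3 and Rab27, 3 rose and 4 did not pass. Of these, Rab3gap2, a subunit of the Rab3 GTPase-activating complex, rose by 0.73 (edgeR adjusted p = 7.63e-04). The other 2, Dennd1a (1.89) and Dennd1b (0.69), are exchange factors best known for Rab35, and without them 1 of 5 rose. Rab3gap1, of the same complex as Rab3gap2, had only 5 to 11 counts in a library and was not tested.

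Of 33 tested effectors and regulators of the other Rabs, 9 (27.3%) were higher and 6 (18.2%) lower, at or below the 28.1% and 27.0% of all tested genes. Dennd4a, an exchange factor for Rab10, rose from 91.0 ± 4.59 to 238 ± 7.46 CPM (1.39, edgeR adjusted p = 1.47e-05), and Micall1, an effector on recycling endosomes, rose by 0.98. Tbc1d15, a GTPase-activating protein for Rab7, rose by 0.70. Tbc1d4 (AS160), a GTPase-activating protein for Rab10 that is controlled by insulin signalling in fat and muscle, fell from 32.2 ± 0.317 to 11.8 ± 0.394 CPM (-1.45, edgeR adjusted p = 4.58e-05).

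The 6 Rab genes below the count filter were Rab17, Rab25, Rab34, Rab38, Rab42 and Rab44. Rab34 had 31, 2 and 2 counts in INS-SMA and 1 in every library of INS-MOCK, so its higher INS-SMA mean rests on replicate 1. Rab17, Rab42 and Rab44 had 0 counts in INS-MOCK and at most 3 in an INS-SMA library, and Rab25, a Rab of epithelial cells, had 4 and 5 counts in 1 library of each group. Rab1b, Rab5a and Rab7b, which RefSeq lists for the rat, were not among the named rows and were not analysed here.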

How the data were processed

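Whole-number raw counts in 1 table, with a column for every library and a row for every transcript, are what the authors deposited. HISAT2, HISAT, DESeq2, hg19 and rn6 are named in the submitters' processing notes without their roles. No counting program, strand setting or annotation is named in the sources used here, and gene coordinates are those of the table. Of 101905 rows, 66301 name no gene. These entered neither library sizes nor tests. The rows of a gene were added up (21553 genes). edgeR 4.0.16 (filterByExpr, TMM, glmQLFit and glmQLFTest with group as the only term, all 6 libraries) tested 13363 genes, with Benjamini-Hochberg adjustment and a threshold of 0.05. The SE is the size of the log2 fold change divided by the square root of F. The script was tested on simulated data. A count of 3 in a library equals 0.117 to 0.18 CPM. Replicates differed by more than random sampling of reads alone would give (chi-square divided by its degrees of freedom, 45.0 to 58.6). Reads assigned differently from library to library would raise this value too. It therefore cannot show whether the replicates are separate libraries.

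The Rab genes, their grouping and all lists were chosen with earlier results of these data known. Each of the 8 granule Rabs is described by library. From each other list the text takes the 4 called members with the smallest adjusted p, called members with at least 2-fold change and the member with the most CPM, and from each pathway list the 4 called genes with the smallest adjusted p. One gene the rule names is not reported here. Other names were chosen after their values were seen. Alternatives were other scaling (RLE, upper quartile), DESeq2 1.42.0, other count filters, the most abundant row, library sizes with unnamed rows, a table without human ACTA2 and mitochondrial genes, a replicate block and leaving out each library.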

Additional observations from a re-analysis of the deposited data

How the results depend on the processing

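Under the 15 alternatives 11 to 13 Rab genes were higher and 18 to 21 lower, with 4 or 5 of the granule list lower. The median log2 fold change was -0.74 to -0.60 for granule Rabs and -0.21 to -0.07 for the others. Of the 31 called Rab genes, 27 kept their call throughout, all but Rab27b, Rab28, Rab29 and Rab35. Of the 18 not called, Rab14, Rab22a, Rab23 and Rab37 passed under at least 1 alternative, Rab22a at -1.36 in its most abundant row (edgeR adjusted p = 0.0018). Signs turned, without a call, for Rab24 in its most abundant row (-0.58) and with 1 library left out for Rab6a (-2.68 to 0.65, positive without INS-MOCK replicate 1), Rab36 (-0.023 to 0.19, negative without INS-MOCK replicate 3) and Rab43 (-0.10 to 0.16, negative without INS-SMA replicate 2). The cause was not tested. Replicate numbers share no stated source, and same-numbered libraries did not deviate together (correlations -0.03, -0.01 and -0.03). With the replicate block 11 Rab genes were higher and 19 lower, and Rab27b lost its call (0.0567). Adding unnamed rows by position was not run, since they carry no coordinates. Depth limits most the called genes under 3 CPM in a group, which were Rab32, Rab27b, Rab15, Rab33a and Rab19 in INS-MOCK and Rab3b, Rab26, Rab27b, Rab29 and Rab2b in INS-SMA.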
